A study of Rattus norvegicus with 10 samples.

Results

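Committed oligodendrocyte precursor nuclei were selected in snRNA-seq of the rat dentate gyrus by 3 genes, Gpr17, Enpp6 and Bmp4, which together had to give at least 3 unique molecular identifiers (UMIs, counted RNA molecules) and at least 0.15% of the UMIs of a nucleus. The rule found 119 such nuclei among 55401 nuclei with 500 or more UMIs and at most 5% mitochondrial UMIs, which is 0.215% of them. The 2 rats with traumatic brain injury (TBI) gave 20 and 39 of them, the sham rat gave 34 and the naïve rat 26. The gate used those 3 genes alone, so their levels are given as a description, and all other genes were free to differ.

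The tissue was the ipsilateral dentate gyrus of male Sprague-Dawley rats. TBI rats received a lateral fluid percussion injury 3 days after a craniectomy over the right parietal cortex and were studied 3 weeks later. The controls were 1 rat with a sham operation but no injury and 1 unoperated, naïve rat. Each rat gave 1 library of nuclei, and all 4 nucleus libraries carry the same batch name in the labels. A further 3 TBI and 3 sham rats gave bulk RNA-seq libraries of the same region, and these rats had no part in the choice of nuclei. The labels give no age for any rat, and the study's methods give only a range in weeks for all its rats, with none per group. As the study did, the sham and the naïve rat were pooled as control, with their values always given apart.

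Oligodendrocyte precursors divide, carry the receptor Pdgfra and the proteoglycan Cspg4 (NG2), and persist through adult life. When one commits to differentiation it leaves the cell cycle, loses those receptors and passes through a short-lived stage marked by Gpr17, Bmp4 and then Enpp6 before it makes myelin. In the adult hippocampus such cells are rare, and they are used as a sign of ongoing production of oligodendrocytes.

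In the order TBI rat 1, TBI rat 2, sham and naïve, the libraries held 12526, 14574, 16936 and 11365 kept nuclei, with medians of 2279, 1640.0, 1897 and 2653 UMIs. Any pair of libraries had 46 to 64 cell barcodes in common, of 11395 to 16972 barcodes in each. The committed precursor nuclei were shallower than the nuclei in no oligodendrocyte gate, which had a median of 2062 UMIs. Committed precursor medians were 1425, 1049, 1322 and 1722 UMIs in TBI rats 1 and 2, sham and naïve, and 1281 over all rats. Nuclei gated below on Pdgfra and Cspg4 had a median of 1154, and those gated on Mog and Mag 1010. Summed per rat the committed precursor nuclei gave 32782, 42397, 45257 and 49494 UMIs, and every level below is in UMI counts-per-million (CPM) of such a sum. At these sums 1 UMI was worth 20.2 to 30.5 CPM, so that low genes rested on single molecules.

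The name of the nuclei was only partly borne out by the genes that define it. Gpr17, the receptor most often used to define committed precursors, was almost missing: 5 of the 119 nuclei held a Gpr17 UMI, each rat's kept nuclei held 9 to 12 in all, and every one of the 119 would have been selected without it. Nuclei with markers of cell types that should lack these genes give the background of the rule. It was met by 12 of 28578 nuclei with neuronal markers (0.0420%, exact 95% interval 0.0217 to 0.0733%) and 1 of 895 with microglial markers (0.112%, 0.00283 to 0.621%). It was met by 0 of 2682 nuclei with astrocyte markers (exact 95% interval 0 to 0.137%) and 0 of 556 with vascular markers (0 to 0.661%). The gate genes summed to 9.12 CPM in the neuronal, 108 in the microglial, 19.6 in the astrocyte and 12.7 in the vascular set, whose median depths were 2343, 776, 1761 and 1972.5 UMIs. The share of 0.215% over all nuclei lies above the neuronal and astrocyte intervals and within the microglial and vascular ones. For nuclei with microglial or vascular markers a lower background was thus not detectable at this depth. Neu4, another gene of this stage, had no UMI in any library. Selection therefore rested on Enpp6, a choline phosphodiesterase of newly forming oligodendrocytes, found in 108 nuclei, and on Bmp4, a secreted bone morphogenetic protein, found in 86, with both in 75. Summed Enpp6 was 1769 and 2736 CPM after TBI, 2497 in sham and 2202 in naïve tissue, and summed Bmp4 was 1129 and 1321 CPM after TBI, 729 in sham and 869 in naïve tissue. Bmp4 was thus higher in both TBI rats than in both controls, while Enpp6 was lowest in TBI rat 1 and highest in TBI rat 2; no test applies to genes that chose the nuclei.

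In bulk RNA-seq the same genes looked different. Gpr17 was 18.4, 36.1 and 17.5 in the sham and 21.4, 19.2 and 14 in the TBI libraries, in CPM of the library. Neu4 was 13.1, 17.2 and 14.2 in the sham and 15.2, 14.2 and 17.3 in the TBI libraries. Both were thus measured in all 6 bulk libraries. Over all kept nuclei Gpr17 was 0.255 to 0.419 CPM, while Enpp6 was 9.62 to 17.3 CPM there and 10.2 to 20.8 CPM in the bulk libraries. Bulk reads and nuclear 3′ UMIs are not on one scale, and the reason for the gap was not tested.

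The classical markers on either side of this stage were below their levels in the nuclei that they gate, which the choice of those nuclei in part fixes. Pdgfra was 183 and 142 CPM after TBI, 22.1 in sham and 0 in naïve tissue, against 2325 ± 123 CPM (SD, n = 4 rats) in 534 precursor-gate nuclei, which were selected in the same way on Pdgfra and Cspg4. Cspg4 was 30.5 and 47.2 CPM after TBI, 0 in sham and 20.2 in naïve tissue. A Pdgfra UMI was present in 6 of the 119 nuclei (5.04%). Mog and Mag, proteins of the finished myelin sheath, chose 981 mature-gate nuclei, where Mog was 2224 ± 347 and Mag 1331 ± 353 CPM. In the committed precursor nuclei Mog was 0 and 142 CPM after TBI, 199 in sham and 283 in naïve tissue, and Mag was 244 and 401 CPM after TBI, 199 in sham and 182 in naïve tissue. Nuclei outside the gates had a mean of 14.4 ± 8.81 CPM of Mag. They hold no nucleus that passed the mature gate, while the committed precursor nuclei include some that did. The gates thus in part fix this difference, and no conclusion is drawn from it. Of the 119 nuclei 106 passed neither of these other gates, 11 also passed the mature gate, 1 the precursor gate and 1 both.

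Values at the border of the gate gave an idea of its sharpness through Bcas1, an actin-binding protein of early myelinating cells that the gate did not use. The 40 nuclei with exactly 3 gate UMIs had 10009 CPM of Bcas1, and the 85 nuclei just outside with 2 gate UMIs and a sufficient share had 6852 CPM. With 1 gate UMI, 129 nuclei had 1062 CPM. Another 35 nuclei had 3 or more gate UMIs but too small a share, with 1912 CPM of Bcas1, and 60% of them also carried markers of another cell type. In Bcas1, nuclei with 2 gate UMIs lay nearer to the selected ones than to those with 1.

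The share of committed precursor nuclei did not separate TBI from control. It came to 0.160% (exact 95% interval 0.0976 to 0.246%) and 0.268% (0.190 to 0.366%) in TBI rats 1 and 2, 0.201% (0.139 to 0.280%) in the sham and 0.229% (0.149 to 0.335%) in the naïve rat. Both controls lay between the TBI rats. The mean was 0.214% ± 0.0763 in TBI and 0.215% ± 0.0198 in control rats (SD, n = 2 each), and an exact two-sided permutation test gave p = 1, where 2 rats against 2 allow no p under 0.33. The intervals cover counting error only.

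**Figure D1:**
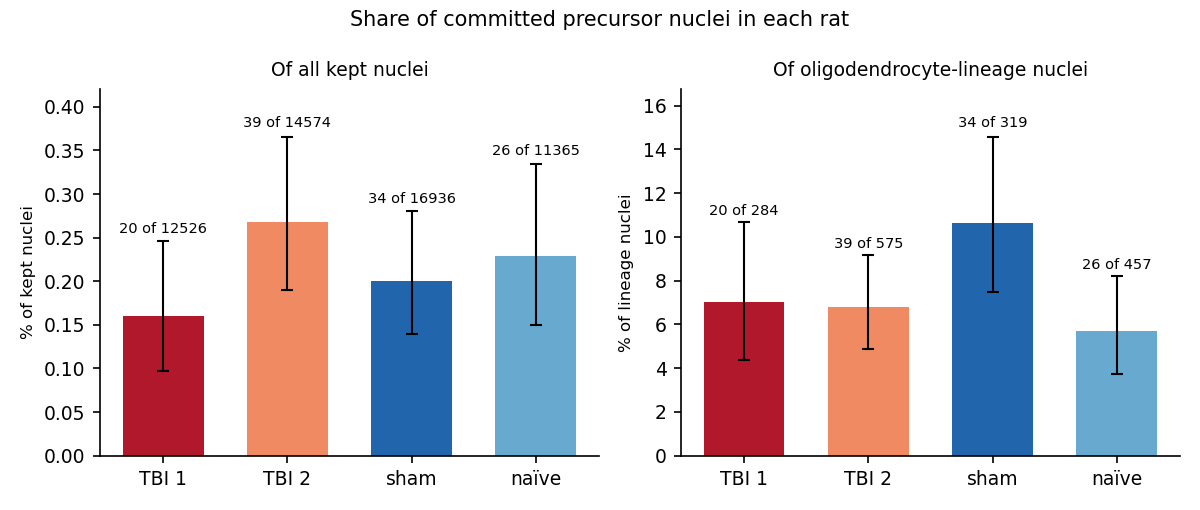
Committed precursor nuclei in each rat as a percent of all kept nuclei (left) and of oligodendrocyte-lineage nuclei, that is nuclei in any of the 3 gates (right). Bars are single rats, error bars are exact 95% binomial intervals and the numbers give nuclei. The controls lie between the TBI rats on the left, and the sham rat is highest on the right.

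Their part of the oligodendrocyte-lineage nuclei was 7.04% and 6.78% after TBI against 10.7% in sham and 5.69% in naïve tissue (p = 1 by a two-sided exact permutation test). The denominators moved between rats, since precursor-gate nuclei were 0.806% and 0.865% of kept nuclei after TBI, 0.549% in sham and 1.88% in naïve tissue. Mature-gate nuclei were 1.30% and 2.81% after TBI, 1.13% in sham and 1.91% in naïve tissue. When 2 gate UMIs were enough, the shares were 0.375% and 0.453% after TBI against 0.319% and 0.326% in sham and naïve tissue, so that the groups no longer overlapped (p = 0.33, exact permutation test, the smallest possible). The gate genes in nuclei outside all gates moved the same way, at 18.4 and 23.1 CPM after TBI, 11.1 in sham and 9.66 in naïve tissue, and their part in this separation was not tested. The 2-UMI gate was not run on thinned nuclei. With 3 gate UMIs required of nuclei thinned to 1000 UMIs, shallower ones left out, 57 of 47339 nuclei passed, at shares of 0.0736% and 0.184% after TBI and 0.113% and 0.114% in sham and naïve tissue, and the groups overlapped.

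To see where these nuclei stood in the lineage, they were compared with the precursor-gate and with the mature-gate nuclei of the same 4 rats by edgeR's quasi-likelihood test on summed UMIs, with the rat as a block and the 7 gate genes left out. The 2 comparisons share the committed precursor nuclei, and their values are given side by side. Against precursor-gate nuclei 335 of 1918 genes tested were higher (17.5%) and 352 lower (18.4%) at an adjusted p (Benjamini-Hochberg) under 0.05. Against mature-gate nuclei 318 of 2833 were higher (11.2%) and 324 lower (11.4%). The median Log2FC over all genes tested was -0.011 and -0.038. In both comparisons these 2 percentages are the background for the counts that follow. The filter on low counts admitted a gene that was abundant in 1 of the 2 populations only, and such a gene had to differ, so the counts and medians over listed genes that passed it are a description and no support for a direction.

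Bcas1, Tns3 and Fyn, genes of the committed stage, stood above both neighbours. Of 17 listed, 16 were in the matrices and 8 passed the filter against precursor-gate nuclei, and these 8 were higher, with a median Log2FC of 2.72. Against mature-gate nuclei 9 were tested, 8 were higher and Kndc1 was lower. Bcas1 was 9822 and 14152 CPM after TBI, 11489.9 in sham and 11719 in naïve tissue, while precursor-gate nuclei had 1923 ± 195, mature-gate nuclei 1659 ± 250.1 and all nuclei outside the 3 gates 138 ± 48.4 CPM (SD, n = 4). Its lowest rat was far above the highest rat of either neighbour (Log2FC 2.70 ± 0.15, adjusted p = 4.94e-24 against precursor-gate, Log2FC 2.76 ± 0.17, adjusted p = 6.68e-12 against mature-gate). A Bcas1 UMI was present in 115 of 119 nuclei (96.6%). After thinning to 700 UMIs it was present in 95.8% of them, in 69.2% of precursor-gate, 65.8% of mature-gate and 2.53% of neuronal nuclei, which should lack it. Before thinning the shares were 81.8%, 77.9% and 6.66%, at medians of 1281 UMIs in the committed precursor and 1154, 1010.0 and 2344 in the other 3 sets, and thinning left out 14, 134 and 128 shallower nuclei of those.

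Other genes of this group were also above both neighbours. Tns3, a focal adhesion protein, was 3508 and 4104 CPM after TBI, 3116 in sham and 3718 in naïve tissue, against 336 to 407 in precursor-gate and 251 to 329 CPM in mature-gate nuclei. Fyn, the Src-family kinase that drives morphological differentiation of oligodendrocytes, was 3599.5 and 3727 CPM after TBI, 4309 in sham and 3576 in naïve tissue. Its Log2FC was 2.72 ± 0.18 against precursor-gate nuclei (adjusted p = 1.12e-20) and 3.97 ± 0.20 against mature-gate nuclei (adjusted p = 1.98e-13). For both genes the lowest rat lay above the highest rat of either neighbour. A Tns3 UMI was found after thinning in 81.5% of committed precursor, 24.0% of precursor-gate, 18.2% of mature-gate and 1.23% of neuronal nuclei, and before thinning in 92.4%, 34.6%, 24.8% and 4.22%. Fyn had a higher share in neuronal nuclei than Tns3. After thinning a Fyn UMI was found in 84.9% of committed precursor, 32.7% of precursor-gate, 11.2% of mature-gate and 24.4% of neuronal nuclei, and before thinning in 92.4%, 48.1%, 19.3% and 59.2%. Sirt2, a tubulin deacetylase of oligodendrocytes, had a mean of 1518 ± 233 in committed precursor, 123 ± 34.5 in precursor-gate and 224 ± 19.9 in mature-gate nuclei (adjusted p = 6.04e-21 and 1.13e-10). Mpzl1, Ust, Rras2 and Cyfip2 were higher too, with Log2FC of 0.81 to 2.89 against precursor-gate and 0.97 to 3.75 against mature-gate nuclei. Kndc1, the exception, had 9 UMIs in these nuclei and a mean of 353 CPM in mature-gate nuclei.

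Genes of newly formed oligodendrocytes were higher as well, so these lists do not tell that stage from the committed one. The name of the nuclei follows the gate. Of 12 listed, 8 were tested in both comparisons, 8 were higher than in precursor-gate nuclei (median Log2FC 3.19) and 7 higher than in mature-gate nuclei (median 2.43). Tcf7l2, a transcription factor of the Wnt pathway that marks the start of differentiation, was 1373 and 1344 CPM after TBI, 1105 in sham and 1637 in naïve tissue. It was 53 to 127 in precursor-gate and 48 to 67.6 CPM in mature-gate nuclei, so that every rat's committed precursors held several times more (Log2FC 3.93 ± 0.25, adjusted p = 2.56e-21, and Log2FC 4.47 ± 0.24, adjusted p = 4.74e-13). A UMI of Tcf7l2 was found in 71.4% of the nuclei, and in 58.0% after thinning, where precursor-gate nuclei had 6.35%, mature-gate 4.01% and neuronal nuclei 0.431%. Nfasc, the neurofascin of paranodes and initial segments, was 5979 and 4458 CPM after TBI, 4331 in sham and 5556 in naïve tissue, and rose most clearly of all genes against precursor-gate nuclei by p (Log2FC 4.26 ± 0.20, adjusted p = 1.65e-28). Tmem163, a zinc transporter, was 1434 and 1415 CPM after TBI, 1326 in sham and 1313 in naïve tissue, with hardly any difference between rats, and Itpr2, an internal calcium release channel, was 732 and 919.9 CPM after TBI, 818 in sham and 1030.4 in naïve tissue. Plekha1 was the one of the 8 not called against mature-gate nuclei (Log2FC 0.44 ± 0.23, adjusted p = 0.184).

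Precursor genes were divided between those below the precursor-gate level and those at it, with 1 above it. Of 16 listed, 13 were tested against precursor-gate nuclei, 9 were lower, 1 was higher and 3 were not called (median Log2FC -1.93). Against mature-gate nuclei 10 were tested, 7 were higher, Luzp2 was lower and 2 were not called (median 2.77). Ptprz1, a receptor phosphatase of precursors, was 488 and 354 CPM after TBI, 419.8 in sham and 323 in naïve tissue, against 2587 to 4877 CPM in precursor-gate nuclei (Log2FC -3.00 ± 0.22, adjusted p = 1.89e-18), and did not pass against mature-gate nuclei (adjusted p = 0.0563). The level in nuclei outside the gates was 438 ± 63.4 CPM, about that in the committed precursors. Pcdh15, Megf11, Dscam, Cspg5, Sox5, Luzp2, Xylt1 and C1ql1 were also lower than in precursor-gate nuclei, with Log2FC of -4.71 to -1.13, and of these Pcdh15, Xylt1 and C1ql1 were higher than in mature-gate nuclei. Cspg5, a brain chondroitin sulfate proteoglycan, had the lowest of these values, with 2 UMIs in the 119 nuclei.

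Sox6, Vcan and Sema3d were not called against precursor-gate nuclei and were higher than in mature-gate nuclei. Sox6, a repressor of oligodendrocyte maturation, was 1586 and 1863 CPM after TBI, 1525 in sham and 2020.5 in naïve tissue, while precursor-gate nuclei had 1538 to 2293 and mature-gate nuclei 74.2 to 167 CPM. The first 2 ranges overlapped (Log2FC 0.039 ± 0.18), and the third lay apart (Log2FC 4.0, adjusted p = 3.08e-12). Vcan, the matrix proteoglycan versican, was 976 and 826 CPM after TBI, 884 in sham and 808 in naïve tissue, with a Log2FC of 0.12 ± 0.21 against precursor-gate and 3.19 ± 0.23 against mature-gate nuclei (adjusted p = 6.27e-11). Sema3d, a secreted guidance cue, had a mean of 376 ± 82.2 in committed precursor, 306 ± 128 in precursor-gate and 5.54 ± 4.9 in mature-gate nuclei. Tnr, the matrix glycoprotein tenascin-R, was the one precursor gene that was higher than in precursor-gate nuclei. It was 3356 and 3774 CPM after TBI, 3756 in sham and 5071 in naïve tissue, against 874.2 to 1297 and 90.3 to 266 CPM in the neighbours (Log2FC 1.91 ± 0.17, adjusted p = 5.85e-15, and Log2FC 4.37 ± 0.25, adjusted p = 1.48e-12). A Tnr UMI was also found in 22.5% of neuronal nuclei after thinning, against 84.0% of committed precursor, 50.2% of precursor-gate and 9.92% of mature-gate nuclei.

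**Figure D2:**
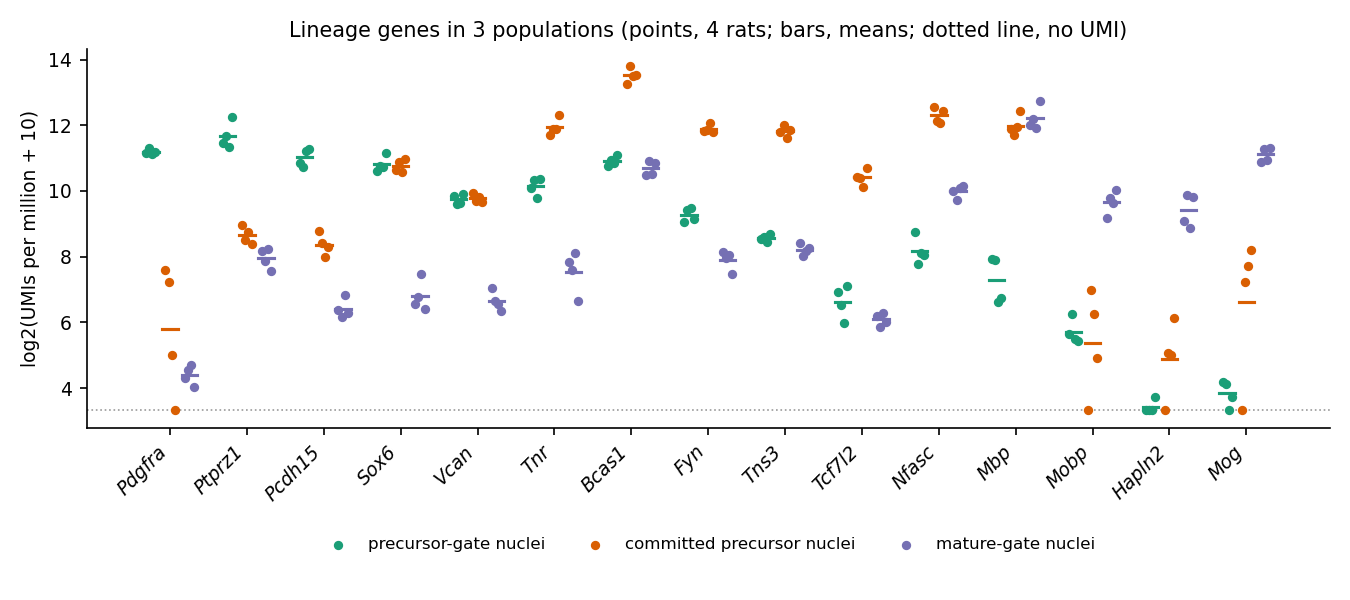
Levels of lineage genes in precursor-gate, committed precursor and mature-gate nuclei on a log2(CPM + 10) axis, where each point is the summed nuclei of 1 rat, bars are means of the log values and the dotted line marks no UMI. Pdgfra, which chose the precursor-gate nuclei, and Mog, which chose the mature-gate nuclei, are shown for orientation. Bcas1, Fyn, Tns3 and Tcf7l2 are highest in the middle population in all 4 rats, and Sox6 and Vcan stay at the level of the precursor-gate nuclei.

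Myelin genes were divided between those near the level of mature-gate nuclei and those far below it. Of 18 measured, only 5 passed the filter against precursor-gate nuclei, and these were higher (among them Mbp, Aspa, Ugt8 and St18, with Log2FC of 1.76 to 4.85), and of 17 tested against mature-gate nuclei 13 were lower, none was higher and 4 were not called (median -2.64). Mbp, myelin basic protein, was 3783 and 3302 CPM after TBI, 3911 in sham and 5556 in naïve tissue. Precursor-gate nuclei had 88.3 to 232 and mature-gate nuclei 3829.8 to 6863 CPM, so that the committed precursors overlapped with the mature-gate nuclei (Log2FC -0.30 ± 0.17, adjusted p = 0.238) and not with the precursor-gate nuclei (Log2FC 4.85 ± 0.24, adjusted p = 3.28e-27). Mbp RNA was also spread outside the lineage, with 255 ± 113 CPM in nuclei of no gate and a UMI in 8.14% of neuronal nuclei thinned to 700 UMIs, against 71.4% of the committed precursors. Both Bcas1 and Mbp were found in 95 of the 119 nuclei, Bcas1 alone in 20, Mbp alone in 1 and neither in 3.

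Aspa, which splits N-acetylaspartate, and Ugt8, which makes galactosylceramide, were not called against mature-gate nuclei, with means of 399 and 277 CPM here and 505 and 283 there. Cldn11, the tight junction protein of myelin, was the fourth gene not called (Log2FC -0.67 ± 0.28, adjusted p = 0.0918). Genes of the finished sheath were at a few UMIs. Hapln2, a link protein of nodes, was 0 and 23.6 CPM after TBI, 22.1 in sham and 60.6 in naïve tissue, against 457 to 923 CPM in mature-gate nuclei (Log2FC -4.66 ± 0.41, adjusted p = 2e-09). Mobp, Ermn, Opalin and Mal had 9, 1, 5 and 8 UMIs in all 119 nuclei and Log2FC of -4.05, -5.81, -3.99 and -2.87.

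**Figure D3:**
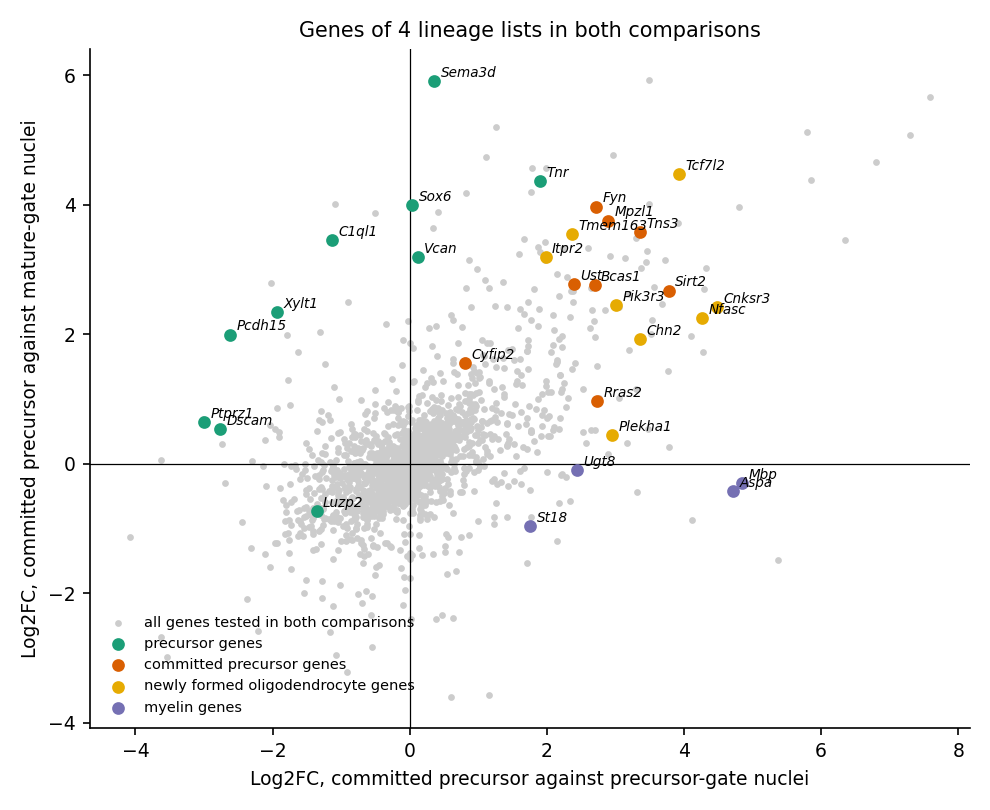
Log2FC of committed precursor nuclei against precursor-gate nuclei (horizontal) and against mature-gate nuclei (vertical) for genes tested in both, with 4 gene lists in colour. Both axes use the same committed precursor nuclei and are not independent. Committed and newly formed oligodendrocyte genes lie to the right and above 0, the lowest being Plekha1, precursor genes range from Ptprz1 on the left to Tnr on the right, and the myelin genes shown lie to the right at or below 0.

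Transcription factors of the lineage gave 5 genes higher and none lower among 7 tested against precursor-gate nuclei, and 2 higher and 2 lower among 9 against mature-gate nuclei. Besides Tcf7l2 these were Myrf, the master regulator of myelin genes, Sox10, Sox2 and Zeb2. Myrf was 153 and 142 CPM after TBI, 155 in sham and 222 in naïve tissue, against 25.8 ± 17.1 CPM in precursor-gate and 149 ± 41 in mature-gate nuclei (Log2FC 2.90 ± 0.57, adjusted p = 2.21e-05, and Log2FC 0.14 ± 0.32, adjusted p = 0.818). Sox10, which specifies the lineage, was higher than in both neighbours (Log2FC 0.92 ± 0.27 and 1.07 ± 0.26, adjusted p = 0.00418 and 0.00254). Zfp536 and Prox1 were lower than in mature-gate nuclei. Olig1 and Olig2, which oligodendrocytes of every stage express, had only 3 and 6 UMIs in these nuclei. Olig1 was low in the neighbours too, with a UMI in 10.7% of precursor-gate and 4.79% of mature-gate nuclei, while the bulk libraries held 106 to 200.3 CPM, and the reason for this gap was not tested. Nkx2-2, Hes1, Hes5 and Id4 had no UMI. With 0 UMIs of 169930, up to 17.7 CPM remained possible by the rule of 3 counts.

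Of 27 measured genes of the Wnt, BMP and Notch pathways only 4 were abundant enough to test against precursor-gate nuclei and none was called, and against mature-gate nuclei Nkd1 alone of 8 was lower. Rnf43, Lrp6, Bmpr2 and Rbpj were the most abundant, and Rnf43, a ubiquitin ligase that removes Wnt receptors, was 0 and 377 CPM after TBI, 442 in sham and 162 in naïve tissue. Guidance and adhesion genes were mixed, with 6 higher and 4 lower of 13 against precursor-gate and 5 higher and 5 lower of 17 against mature-gate nuclei. Sema5a, a transmembrane semaphorin, was 2196 and 2453 CPM after TBI, 2320.1 in sham and 3455 in naïve tissue (Log2FC 1.73 ± 0.19, adjusted p = 4.17e-12, and Log2FC 2.50 ± 0.24, adjusted p = 1.23e-08). Ephb1, an ephrin receptor, the semaphorin Sema4d, the plexin Plxnb3 and the adhesion molecule Cadm2 were also higher in both comparisons. Dcc, the netrin receptor of migrating precursors, was lower than in precursor-gate nuclei (Log2FC -1.73 ± 0.26, adjusted p = 1.22e-07), with Cntn1, Robo1 and Adgrb3, and its level of 308 ± 147 CPM was below the 825 ± 96.7 of nuclei outside the gates.

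Glutamate receptor and channel genes were lower than in precursor-gate nuclei, with 13 of 19 lower, 1 higher and 5 not called (median Log2FC -0.94). Cacng4, an auxiliary subunit of AMPA receptors, was 91.5 and 212 CPM after TBI, 44.2 in sham and 20.2 in naïve tissue, against 556 to 764 CPM in precursor-gate nuclei (Log2FC -2.78 ± 0.36, adjusted p = 9.02e-10). Gria4, Grin3a, Gria3, Gria2 and Grik1 had Log2FC of -1.53, -2.43, -1.33, -0.94 and -1.66. Grik2, a kainate receptor subunit, was the gene that was higher, at 3878 ± 789 CPM against 2507 ± 248 (Log2FC 0.71 ± 0.16, adjusted p = 0.00029). Against mature-gate nuclei 3 of 17 were lower, 1 was higher and 13 were not called. Several of these genes are abundant in neurons, and nuclei outside the gates had 2679.8 ± 148 CPM of Gria2 and 2442 ± 264 of Grik2, which is of the same order as in the 3 populations. The part of free neuronal RNA in these values was not tested.

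Lipid synthesis genes were mostly too low to test, at 4 of 28 against precursor-gate nuclei, where Fa2h, which makes the hydroxylated fatty acids of myelin lipids, was higher (Log2FC 1.26 ± 0.28, adjusted p = 0.000161). Of 5 tested against mature-gate nuclei Gal3st1, the sulfatide-forming enzyme, was higher (Log2FC 1.39 ± 0.36, adjusted p = 0.00492), and Scd2 and Srebf2 were lower. No cell cycle gene of 22 could be tested. Mki67, Cdk1 and 11 others had no UMI, Ezh2 had the most with 13 UMIs, and the list summed to 183, 307, 155 and 101 CPM in TBI rats 1 and 2, sham and naïve, against 318 to 615 in precursor-gate nuclei. Of 20 immune-response genes of oligodendrocytes only Cd9 and Apoe were tested. Cd9, a tetraspanin, was higher than in both neighbours, and Apoe was lower than in precursor-gate nuclei. Another 12, C4a, C4b, Cd74 and Psmb8 among them, had no UMI in the committed precursors of any rat. C4a, C4b, Cd74 and Psmb8 had no UMI in precursor-gate nuclei either, and C4a, C4b and Psmb8 had none in mature-gate nuclei.

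Beyond the lists, the genes with the smallest p whose 4 rats all moved one way included, against precursor-gate nuclei, Ankrd44 and Cdyl among the 10 highest-ranked rises. Ankrd44, a regulatory ankyrin subunit of a phosphatase, was 1952 and 2052 CPM after TBI, 2209.6 in sham and 2566 in naïve tissue, against 79.5 to 259 and 304 to 416 CPM in the neighbours. Falls were led by Ptprz1, Col5a3, Chst11, Pcdh15, Pstpip2, Megf11, Emid1, Tpm1, Spon1 and Dscam. Of these, Ptprz1, Pcdh15, Megf11 and Dscam belong to the precursor list given above. Col5a3, a fibrillar collagen chain, was 122 and 47.2 CPM after TBI, 0 in sham and 40.4 in naïve tissue, against 1016 to 1903 CPM in precursor-gate nuclei (Log2FC -4.73 ± 0.37, adjusted p = 1.55e-17). Chst11, a chondroitin 4-sulfotransferase, had a Log2FC of -3.63 ± 0.30.

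Against mature-gate nuclei the leading rises besides Fyn, Tcf7l2, Tns3, Tnr, Sox6 and Tmem163 were Ppfibp1, Arhgap24, Ptprj and Arhgap31. Arhgap24, a GTPase-activating protein, was 915 and 1462 CPM after TBI, 1503 in sham and 1354 in naïve tissue, against 3.98 to 56 CPM (Log2FC 5.92 ± 0.35, adjusted p = 2.09e-12). Arhgap31, a related protein acting on Rac and Cdc42, was higher than in mature-gate nuclei (Log2FC 4.01 ± 0.25) and lower than in precursor-gate nuclei (Log2FC -1.08 ± 0.20). The falls were led by Pex5l, Grm3, Fnbp1, Hapln2, Tmeff2, Enpp2, Car2, Mobp, Ano4 and Ptprd. Grm3, a metabotropic glutamate receptor, had 322 ± 230.3 CPM against 3642 ± 666, and Car2, the carbonic anhydrase of oligodendrocytes, 79.7 ± 67.1 against 879 ± 288 (adjusted p = 3.25e-10 and 9.34e-09).

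Markers of other cell types were present in these nuclei. By a rule of 3 UMIs and 0.15%, 13 of the 119 nuclei also carried markers of another type, 12 of them neuronal and 1 microglial, with 8 of the 12 neuronal ones in TBI rat 2 and the microglial one in TBI rat 1. Of the 8 measured genes of glutamatergic neurons 6 had a UMI, led by Syt1 with 204 UMIs, and they summed to 2745, 1934, 2652 and 1495 CPM in TBI rats 1 and 2, sham and naïve. Nuclei outside the gates had 6181, 6123, 6689.7 and 6007, precursor-gate nuclei 3485, 3017, 3965 and 1807 and mature-gate nuclei 3374, 2806, 3404 and 1461 CPM, and none of the 4 genes tested was called in either comparison. Slc17a6 was among those at 0. The 8 GABAergic markers summed to 275, 448, 265 and 465 CPM, against 380.4, 473, 363 and 336 in nuclei outside the gates, led by Adarb2 with 38 UMIs, and Sst was at 0. The 6 genes of immature neurons summed to 153, 212, 44.2 and 141 CPM, led by Stmn2 with 11 UMIs, and Eomes and Igfbpl1 were at 0.

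The 9 astrocyte genes summed to 854, 425, 398 and 525 CPM, against 1366, 1483, 1569 and 1847 in nuclei outside the gates, led by Slc4a4 with 48 UMIs, and Aldh1l1 and Fgfr3 were at 0. The 9 microglial genes summed to 519 CPM in TBI rat 1 and 94.3, 66.3 and 80.8 in the other rats, against 137, 224, 109.8 and 156 in nuclei outside the gates. In TBI rat 1 they were thus above the 80.1 CPM of precursor-gate and the 98.2 CPM of mature-gate nuclei as well. They were led by Ctss with 11 UMIs, and P2ry12, Cx3cr1 and C1qa were at 0. Endothelial genes summed to 20.2 to 66.3 CPM, led by Slco1a4 with 3 UMIs, and none of the 7 pericyte genes had a UMI. With the 13 nuclei left out, 306 genes were higher and 326 lower than in precursor-gate nuclei of 1657 tested, and 289 and 303 of 2454 against mature-gate nuclei.

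The nuclei were also split by their gate UMIs. Enpp6 gave the larger part of the gate UMIs in 87 nuclei and not in the other 32, which came to 13, 26, 28 and 20 against 7, 13, 6 and 6 nuclei in TBI rats 1 and 2, sham and naïve. Of all 119 nuclei, 40 had 3 gate UMIs and 29 had 4, so 1 molecule could decide the subset. Between the 2 subsets 2 of 236 genes were higher (0.847%) and 2 lower (0.847%) in the Enpp6-led nuclei. Tmem163 was 1706, 1910.4, 1552 and 1477 CPM in the Enpp6-led and 685, 425, 351 and 564 in the other nuclei, in the same order of rats (Log2FC 1.52 ± 0.36, adjusted p = 0.0177). Tspan2, a tetraspanin of differentiating oligodendrocytes, was higher as well (Log2FC 1.68 ± 0.45, adjusted p = 0.0418). Dscaml1, an adhesion molecule, and Pcdh15, a precursor cadherin, were lower, with all 4 rats on one side (Log2FC -2.06 ± 0.36, adjusted p = 0.000719 and Log2FC -1.77 ± 0.42, adjusted p = 0.0177). The call of Dscaml1 held without any one rat (and was lost without the filter on low counts), while those of Tmem163 and Tspan2 were lost without either TBI rat or the sham rat (adjusted p of 0.0774 to 0.311 by edgeR). The call of Pcdh15 was lost without TBI rat 1, the sham or the naïve rat (adjusted p of 0.0553 to 0.231), and without TBI rat 2 it was too low to test. Without nuclei carrying markers of other cell types the call of Dscaml1 alone held (adjusted p = 0.00660), those of Tmem163 and Tspan2 were lost (adjusted p = 0.0623 for both) and Pcdh15 was too low to test. Leaving them out lowered the UMIs of the other subset from 8537 to 4414 in sham and from 14131 to 9968 in TBI rat 2, and those of the Enpp6-led subset from 36720 to 35538 and from 28266 to 21566. In TBI rat 1 and the naïve rat all such nuclei were Enpp6-led. DESeq2 likewise called Dscaml1 alone of the 4 (adjusted p of 0.193 to 0.215 for the others). The part of other cell types' RNA in this comparison was not tested.

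Between TBI and control no gene of the committed precursor nuclei passed the threshold. With 2 TBI rats against the sham and the naïve rat, edgeR called 0 of the genes tested (0%), with 16 at an unadjusted p under 0.05, and DESeq2 called 0 with 6 at an unadjusted p under 0.05. Bcas1 had a Log2FC of 0.031 ± 0.33, Nfasc 0.045 ± 0.33, Tns3 0.13 ± 0.32 and Fyn -0.12 ± 0.31, with SE. The 8 committed precursor genes tested had a median Log2FC of 0.076, the 8 newly formed oligodendrocyte genes -0.099, the 7 precursor genes 0.069 and the 6 myelin genes -0.091, against -0.013 over all genes tested. With standard errors of 0.31 to 0.33 even for these abundant genes, changes of 2-fold could have been missed at this depth.

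The genes with the smallest p whose TBI rats both lay on one side of both controls are given as values that did not pass (adjusted p = 0.998 for each). Those higher in TBI were Plxdc2, Tmcc3, Adam11, Ehbp1 and Pak7, and those lower were Pex5l, Dse, Ninj2, Senp7 and Chsy3. Plxdc2, a membrane receptor, was 336 and 472 CPM after TBI, 155 in sham and 60.6 in naïve tissue (Log2FC 1.91 ± 0.58). Pex5l was 91.5 and 165 CPM after TBI, 464 in sham and 364 in naïve tissue (Log2FC -1.64 ± 0.54), and Chsy3, a chondroitin synthase, was 488 and 377 CPM after TBI, 729 in sham and 1212 in naïve tissue (Log2FC -1.21 ± 0.44). Each rested on 31 to 132 UMIs in all 4 rats. Cnksr3, a scaffold of newly formed oligodendrocytes, was 458 and 307 CPM after TBI, 597 in sham and 949.6 in naïve tissue, with a Log2FC of -1.07 ± 0.46 (unadjusted p = 0.0402). Microglial RNA was highest in TBI rat 1 (519 CPM), nuclei with neuronal markers were most frequent in TBI rat 2 (8 of 39), and their part in these values was not tested. With the sham rat left out, the naïve rat is the lone control and is assumed to vary as the TBI rats do. That fit called 1 gene, AC134224.3, an unnamed row shown because it was the only one (lower in TBI, adjusted p = 0.0298). With the naïve rat left out, TBI against the sham rat alone called none under the same assumption (36 genes at an unadjusted p under 0.05).

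Whether injury acted differently on committed precursors and on precursor-gate nuclei was tested as an interaction. None of 1918 genes passed in edgeR (0%), with 104 at an unadjusted p under 0.05, and none in DESeq2, with 11. On simulated data the edgeR fit recovered 4 of 97 genes changed by a Log2FC of 1 (4.12%). Of 103 changed by a Log2FC of 2 it recovered 38 (36.9%), so large differences could have been missed. The smallest p belonged to Mbp (Log2FC of the difference -1.75 ± 0.42, adjusted p = 0.295), followed among the lower ones by Cntnap5b, Clock, Pex5l and Cdc37l1, and the smallest p among the higher ones were those of Capza2, Plxdc2, Cst3, Gnb1 and Ankrd6. In precursor-gate nuclei Mbp was 232 and 229.8 CPM after TBI, 88.3 in sham and 96.7 in naïve tissue, higher in both TBI rats. In nuclei outside the gates it was 261 and 400.1 CPM after TBI, 230 in sham and 127 in naïve tissue, so in each library precursor-gate nuclei lay below the nuclei outside the gates. The part of these other nuclei's RNA in the result was not tested. In committed precursors, as given above, both TBI rats lay below both controls. With the sham rat left out, and the naïve rat as the lone control assumed to vary as the others, 3 genes passed, Nkain2, Mbp and Chsy3, all with a lower TBI effect in the committed precursors (adjusted p = 0.00581, 0.0213 and 0.0315).

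Bulk RNA-seq of the other 6 rats offered an independent look at the marker genes, with 25121900 to 44649400 estimated counts per library. In whole tissue fewer cells of a type and less RNA per cell cannot be told apart. Among these libraries sham library 2 stood apart, with 19259 CPM over the myelin genes against 6170 to 9286 in the other 5 libraries. edgeR called none of 14166 genes between TBI and sham (0%), with 1360 at an unadjusted p under 0.05, while DESeq2 called 338 higher and 11 lower and limma none. The date of injury in the metadata was split here into months before July and later ones. With this split as a covariate edgeR again called none, and within each part 1 arm held a single library. The genes with the smallest p and no overlap, none past the threshold, were Tgfb1, Mx2, Psmb8, Clec4a3 and C4a, known from immune responses, among those higher and Stard4, Sqle and Acat2, of cholesterol synthesis and transport, among those lower in TBI.

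The gate genes did not separate the groups. Enpp6 was 10.2, 16.9 and 10.2 in the sham and 12.4, 20.8 and 10.2 in the TBI libraries (Log2FC 0.19 ± 0.32, adjusted p = 0.921), and Bmp4 was 11.1, 17.9 and 10.4 in the sham and 10.5, 10.8 and 13.8 in the TBI libraries (Log2FC -0.20 ± 0.24, adjusted p = 0.858). Gpr17, given above, had a Log2FC of -0.43 ± 0.31 (adjusted p = 0.732), and without sham library 2 it was -0.0083. Bcas1 was 184, 547 and 229 in the sham and 185, 285 and 200.5 in the TBI libraries (Log2FC -0.56 ± 0.41, adjusted p = 0.736), with sham library 2 highest, and without that library its Log2FC was 0.074. Pdgfra was 56.4, 83.7 and 56.3 in the sham and 59.4, 58.9 and 108 in the TBI libraries, and Mog was 66.6, 212 and 87.5 in the sham and 62.8, 88.1 and 72.9 in the TBI libraries. The groups overlapped for every one of these genes, and without sham library 2 the Log2FC of Bmp4 was 0.090, of Pdgfra 0.38 and of Mog -0.084. The direction of Enpp6 and Pdgfra also rested on 1 library. The Log2FC of Enpp6 was 0.48 without sham library 2 and -0.20 without TBI library 2, and that of Pdgfra was -0.18 without TBI library 3. The 16 committed precursor genes had a median Log2FC of -0.064 and the 18 myelin genes -0.60, against -0.0030 over all named genes, and 0 of either list was called. Without sham library 2 these medians were 0.15 and -0.0062, so the first changed sign and the second came near 0. Mature-gate nuclei, which outnumbered the committed precursors, also transcribed Bcas1 and the myelin genes. Other cell types moved beside these genes: the 8 microglial markers summed to 541, 526 and 521 CPM in the sham and 875, 1515 and 892 in the TBI libraries, and the 8 astrocyte markers to 3892, 4198 and 3413 against 6080.2, 9114 and 6439.8 CPM. Their part in the bulk values was not tested.

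**Figure D4:**
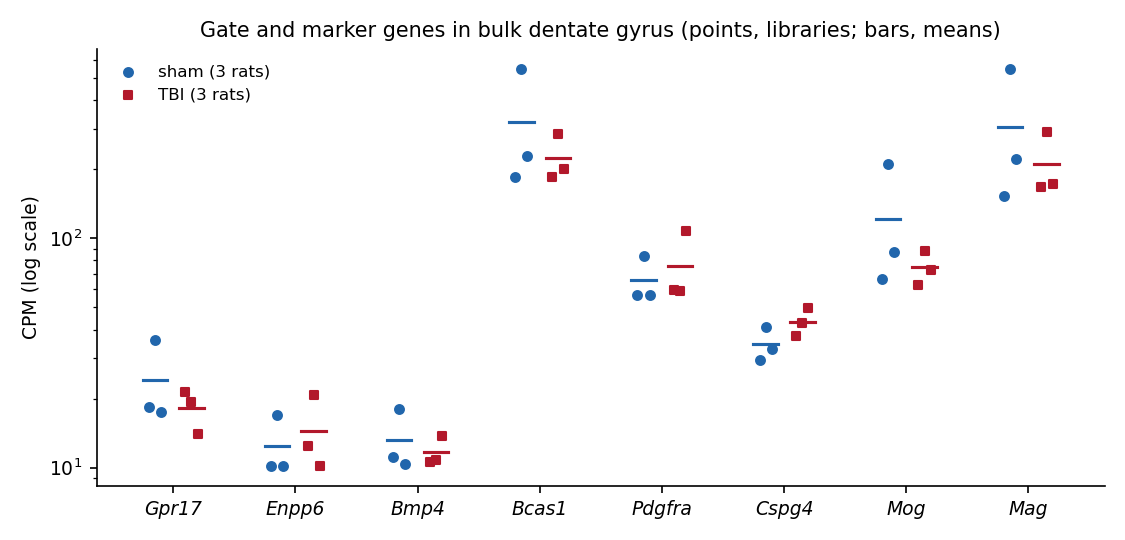
Levels of the gate genes, Bcas1 and the markers of the neighbouring gates in bulk dentate gyrus, as CPM on a log axis, with 1 point per library and bars for the means of 3 sham and 3 TBI rats. The groups overlap for every gene shown, and sham library 2 is the highest point for Bcas1, Mog and Mag.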

How the data were processed

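Single-nucleus RNA-seq came from 4 rats and bulk RNA-seq from 6 others. The authors made the UMI count matrices with Cell Ranger over exons and introns of Rnor_6.0, 1 library per rat, and deposited them unnormalized. Part of the deposited entries are stored zeros (1.63% in TBI rat 1, 27.4% in TBI rat 2, 11.1% in sham, 15.5% in naïve), left by a step not given in the sources used here. Whether that step also lowered other entries is unknown, so the sums and the background levels set side by side between rats may be affected unevenly, which was not tested. For bulk tissue the authors deposited estimated counts per transcript from kallisto and log2 CPM per gene after leaving out features without annotation, with low totals or with low variance. Gene counts were worked back from the log2 CPM and rounded. The lowest log2 CPM of each library was assumed to stand for no count, which gave the library total used. Of 14166 genes, 13778 matched a symbol in the RefSeq GRCr8 table, used for names only. All per-sample columns were used.

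Nuclei with at least 500 UMIs and at most 5% mitochondrial UMIs were kept, 55401 of 55863 barcodes, with 26451421 to 35330548 UMIs per library. No doublet caller was run. Nuclei with 3 or more UMIs and at least 0.15% from another cell type's markers were left out in an alternative. UMIs were summed per rat and population, since nuclei are not replicates, and tested with edgeR 4.0.16 (quasi-likelihood, TMM, filter on low counts, Benjamini-Hochberg adjustment, threshold 0.05) in R 4.3.3. The fits between populations had the rat as a block, because both populations come from the same animal. Gate genes were left out of these tests. Log2FC are given with SE. DESeq2 1.42.0, limma 3.58.1, other gates, thresholds and filters and leaving out each rat were alternatives, and all fits were tested on simulated data. Shares were compared by exact permutation over rats (scipy 1.17.1). For shares of nuclei with a UMI, nuclei were thinned to 700 UMIs. Because nuclear reads fall in introns, CPM of different genes are not on one scale.

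Named were the gate genes, for each gene list the counts with up to 4 members of highest level and up to 4 of smallest p, and for each test the 10 genes in each direction with the smallest p whose rats all lay on one side (5 where none passed), passing over rows without a symbol. Other list members are named where their count is explained. Some genes that this rule picks are counted but not reported here by name. Members and gene lists were chosen with earlier results of these data known. The p-values measure the spread between these rats only, with 1 sham and 1 naïve rat as control.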

Additional observations from a re-analysis of the deposited data

How the results depend on the processing

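All 200 alternative values of the named genes against precursor-gate nuclei, and all 200 against mature-gate nuclei, kept direction and call. These genes were named for the smallest p with all rats on one side, so the choice largely fixed this outcome, and no conclusion is drawn from it. A stricter threshold (adjusted p under 0.01 and an absolute Log2FC of 1.5) left 304 and 340 genes, and without the replicate block by rat 621 and 562 were called. The difference in share between TBI and control was near 0 and changed sign, to 0.0918 percentage points with 2 or more gate UMIs, 0.00296 with a gate share of 0.3%, 0.0153 after thinning and 0.000654 with the study's further filters, and lay between -0.0551 and 0.0528 when 1 rat was left out. Between Enpp6-led and other nuclei, 4 calls became 1 with the stricter threshold, 1 with DESeq2, 1 without nuclei carrying other markers, 8 with DESeq2 size factors, 36 with no filter on low counts, 3 with no replicate block, and 1 to 26 without 1 rat (26 without the naïve rat). With 5 or more gate UMIs this comparison could not be fitted, since 1 rat had no nuclei left in a subset. Leaving out 1 rat gave 0 to 1 genes for TBI against control and 0 to 3 for the interaction, in both cases the higher number without the sham rat. In bulk tissue DESeq2 called 349 genes (338 higher) and the fit with the replicate number as a replicate block 61 (59 higher). Same-numbered libraries correlated at 0.35, 0.17 and -0.030 in their deviations. With so few libraries and no reference for such values, they cannot decide whether the numbers pair the rats. Leaving out 1 library gave 0 to 1 genes (1 without TBI library 3). The bulk Log2FC then lay between -0.20 and 0.48 for Enpp6 (lowest without TBI library 2), -0.36 and 0.090 for Bmp4, -0.18 and 0.38 for Pdgfra (lowest without TBI library 3), -0.93 and 0.13 for Mag and -0.84 and 0.074 for Bcas1, the upper end each time without sham library 2. The causes were not tested. A control arm of 1 rat was assumed to vary as the TBI rats do, and TBI against the sham rat alone called 0 genes. With 20 to 39 nuclei per rat, depth limits the TBI comparison to abundant genes.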

Other observations

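Some of the steepest differences lay outside the gene lists, and these 5 rows are named after their values were seen. Kif19, a kinesin that shortens microtubules, had 275 and 283 CPM after TBI, 155 in sham and 182 in naïve tissue, from 37 UMIs, and no UMI among 672989 in precursor-gate nuclei. Set against 3 counts over that whole population (4.46 CPM), the pooled level was at least 48.8-fold higher. Mature-gate nuclei held 4 Kif19 UMIs among 1140144. Cmtm7, a membrane protein with a MARVEL domain, had 397, 425, 309 and 505 CPM in TBI rats 1 and 2, sham and naïve, with 2 UMIs in all precursor-gate nuclei and a Log2FC of 4.65 ± 0.38 against mature-gate nuclei. Tns1, a tensin like Tns3, had 397, 142, 376 and 364 CPM, and Rasgef1b, an exchange factor for Rap2, 427, 660.4, 663 and 505 CPM. Tns1 had 2 UMIs in all precursor-gate nuclei, under the 3 counts used for Kif19, so no fold is given for it there. Rasgef1b had 6 UMIs in precursor-gate nuclei and a Log2FC of 5.86 against them. Against mature-gate nuclei the Log2FC of Tns1 and Rasgef1b were 3.46 and 4.37. In each of the 4 genes every rat's committed precursors lay above every rat of both neighbours.

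A row with no gene symbol, AABR07028615.1, also differed from both neighbours. It had 2257, 1981, 1900.3 and 2081 CPM in the committed precursors, 26.7 to 51.9 in precursor-gate, 25.8 to 115 in mature-gate and 51.8 to 76.1 CPM in all nuclei outside the gates. Its Log2FC was 5.79 ± 0.28 against precursor-gate nuclei (adjusted p = 7.92e-28 by edgeR) and 5.13 ± 0.28 against mature-gate nuclei. What it transcribes is not given in the matrices.

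Among nuclei with neuronal markers, Bcas1 UMIs were found after thinning in 3.20% and 3.03% in TBI rats 1 and 2, 3.11% in the sham and 0.632% in the naïve rat, so the naïve library had the lowest background for this gene. Committed precursor nuclei stood at 94.9 to 97.1% in every rat.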
